A study of Homo sapiens with 6 samples.

Results

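The respiratory chain is built from 2 genomes, and its transcripts were followed here in human neurons with and without a PEDS1 knockout. Members were chosen by gene symbol: nuclear genes whose names start with NDUFA, NDUFB, NDUFC, NDUFS or NDUFV and a digit, SDHA to SDHD, UQCR genes, COX4 to COX8 genes and ATP5F, ATP5M and ATP5P genes, and the mRNAs and rRNAs of the mitochondrial genome (MT- genes). They number 101 of the 16625 genes measured. Of these, 15 are mitochondrial-genome genes (13 mRNAs and 2 rRNAs) and 86 are nuclear. The nuclear members divide into 78 protein-coding genes, 5 pseudogenes and 3 antisense or divergent transcripts. By complex, the protein-coding nuclear members are 35 for complex I, 4 for complex II, 9 for complex III, 13 for complex IV and 17 for complex V. The mitochondrial genome adds 7 mRNAs for complex I, 1 for complex III, 3 for complex IV and 2 for complex V. In the annotation the rule takes 101 protein-coding genes, of which 91 were measured and 10 were not analysed here, among them NDUFV2 and the tissue isoforms COX4I2, COX6A2, COX7A1 and COX8C.

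The cells were human neurons, obtained from induced pluripotent stem cells (iPSCs, cells that can form any tissue) by doxycycline-driven expression of NGN2, a transcription factor that turns iPSCs into neurons. All libraries carried this NGN2 cassette at the AAVS1 safe-harbor locus, all lines derived from the line UCSFi001-A, and all cells were matured in BrainPhys medium with doxycycline. Neurons were taken at day 10 to 14 according to the design text of the series. The control group (3 libraries) came from 1 control line and the PEDS1 knockout group (3 libraries) from 1 knockout line, as named in the labels, so line and genotype cannot be told apart. PEDS1 is the desaturase that forms the vinyl ether bond of plasmalogens, a class of ether lipids found in membranes including those of mitochondria.

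Complex I (NADH dehydrogenase), complex II (succinate dehydrogenase), complex III (cytochrome bc1) and complex IV (cytochrome c oxidase) pass electrons to oxygen, and complex V (ATP synthase) uses the resulting proton gradient to make ATP. Mitochondrial DNA is transcribed as long precursors from both strands, which are cut at the tRNAs between genes into rRNAs and mRNAs, while nuclear subunits are transcribed singly and imported. Every complex but complex II combines subunits of both genomes, and neurons depend heavily on this pathway for ATP.

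Depth ran from 17996634 to 44573013 recovered reads per library. The deposited values are normalized counts, read counts divided by 1 size factor per library, and log2 fold changes are of normalized count + 1, labelled knockout over control. Tests used limma with Benjamini-Hochberg adjustment over all 16625 genes and an adjusted p under 0.05 as the threshold. Whether the replicates are separate cultures is not stated in the labels, and the p-values therefore reflect only the spread among these libraries, which may be technical. PEDS1 itself had 1360.0, 1347 and 1399 normalized counts in controls 1, 2 and 3, and the libraries labelled PEDS1 knockout replicate 1, 2 and 3 had 836, 765 and 1349, a log2 difference of -0.52 that did not pass (limma adjusted p = 0.0725). The library labelled PEDS1 knockout replicate 3 lay within the control range. Without that library PEDS1 fell by 0.77 (limma adjusted p = 0.000147). With all 6 libraries the call turned on the method: limma gave an adjusted p of 0.0398 with scaling to total nuclear reads and 0.00547 after GC and length trends were removed, and the authors' deposited table gives 0.0455 (log2 fold change -0.48). The neuron markers chosen for these cells were all measured, 12 of 12, with a summed level of 398876 to 417290 normalized counts in controls and 444535 to 456906 in libraries labelled knockout. NEFM, NEFL, STMN2 and SYT1 hold most of that sum, and single neuron markers went both ways. SLC17A7, ELAVL4 and NEFL rose by 0.55, 0.44 and 0.22 (limma adjusted p = 0.00154, 0.00403 and 0.0496), and TUBB3 and RBFOX3 fell by 0.70 and 0.36 (limma adjusted p = 0.0244 and 0.0313). Of 8 pluripotent cell markers 3 were measured, with a summed level of 509 to 583 against 951 to 1122, and POU5F1 and NANOG are not among those analysed here. LIN28A and PRDM14 of that list rose by 1.08 and 0.53 (limma adjusted p = 0.000321 and 0.0273). Progenitor markers (6 of 7 measured) summed to 25992 to 27821 against 27916 to 31386, glial markers (5 of 8) to 410 to 442 against 554 to 558, and mesenchymal markers (4 of 8) to 61.1 to 83.2 against 65.4 to 132.7. NES holds most of the progenitor sum, in which TOP2A and PAX6 rose by 1.04 and 0.89 and SOX2 fell by 0.47 (limma adjusted p = 0.00749, 0.00912 and 0.0118). COL1A2 of the mesenchymal list rose by 1.08 (limma adjusted p = 0.0156). It had only 16.0 to 17.7 normalized counts in controls and 27.9 to 43.1 in libraries labelled knockout. In the same list PDGFRB had 0.87, PDGFRA -0.29 and COL3A1 -0.30, and none of them passed. The part of these shifts in the results below was not tested.

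Across all genes, 5.95% were called higher and 7.69% lower in libraries labelled knockout, with a median log2 fold change of -0.01. Among the 15 mitochondrial-genome genes, none was higher and 3 were lower. Among the 78 nuclear protein-coding subunits, 2 were higher and 1 was lower. In bulk RNA, fewer cells of a type and less RNA per cell cannot be told apart, nor can fewer mitochondrial genomes and less RNA per genome.

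In controls the mitochondrial mRNAs were far more abundant per length than the nuclear ones. On the scale of normalized counts per kilobase of transcript, the median level was 40649 over the mitochondrial mRNAs and 2103 over the nuclear protein-coding members. MT-ND4 had the highest mitochondrial level, 110663 per kilobase, and MT-ND6 the lowest, 952. MT-ND6 is the only mRNA made from the light strand and is known to carry little or no poly(A) tail, and these libraries were made from polyA RNA. Among nuclear members ATP5F1B, the catalytic beta subunit of ATP synthase, had the highest level per kilobase (16886) and UQCRHL, a close copy of UQCRH, the lowest (12.1). As a share of all normalized counts, the 13 mitochondrial mRNAs took 2.41%, 2.32% and 2.22% in controls 1, 2 and 3, and the 78 nuclear subunits together 0.987%, 0.999% and 1.02%.

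Neighbouring mitochondrial genes are packed so closely that some pairs share bases, which bears on how their counts can be read. MT-ATP8 and MT-ATP6 overlap by 46 bases at chrM:8527-8572 and MT-ND4L and MT-ND4 by 7 bases at chrM:10760-10766 (GRCh38, plus strand). MT-ATP6 and MT-CO3 share the base at chrM:9207. The bases shared by MT-ATP8 and MT-ATP6 are shown because a read over them can belong to both genes. Capitals are not used as no part of them is marked.
MT-ATP8 and MT-ATP6: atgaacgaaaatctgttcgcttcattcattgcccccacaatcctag
No source used here names the counting tool, so the split of reads between the genes of each pair is uncertain. The ratio of MT-ATP8 to MT-ATP6 counts was 0.184, 0.188 and 0.185 in controls and 0.180, 0.188 and 0.220 in libraries labelled knockout, which are close except in replicate 3.

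Of the 15 mitochondrial-genome transcripts 3 fell in libraries labelled knockout, and the other 12 had fold changes below 0 that did not pass. MT-RNR2, the large rRNA of the mitochondrial ribosome (chrM:1671-3229), had 170561, 163421 and 158896 normalized counts in controls and 138382, 98567 and 91224 in libraries labelled knockout 1, 2 and 3. Every library labelled knockout lay below every control. It fell by 0.61 ± 0.13 (SE) on the log2 scale (limma adjusted p = 0.0172).

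MT-ND1, a membrane subunit of complex I next to its quinone site (chrM:3307-4262), had 38660.5, 36338 and 35345 normalized counts in controls and 28674, 12657 and 18833 in libraries labelled knockout 1, 2 and 3. The groups did not overlap, and the library labelled knockout 2 was the lowest. It fell by 0.95 ± 0.22 (SE; limma adjusted p = 0.0226). MT-ND2, a proton-pumping subunit of complex I (chrM:4470-5511), had 35043, 33225 and 33368 in controls and 29205, 13629 and 18648 in libraries labelled knockout. Again no library labelled knockout reached the lowest control. It fell by 0.80 ± 0.21 (SE; limma adjusted p = 0.0344).

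The other 12 mitochondrial-genome genes had limma adjusted p-values from 0.0544 (MT-ND4) to 0.260 (MT-ND6). At an unadjusted p under 0.05 limma gave 13 of 15 lower and 0 higher, and edgeR and DESeq2 on recovered reads called 3 and 2. Over the 15 genes the log2 fold change ran from -0.95 to -0.27 with a median of -0.61. MT-ND4, a proton-pumping subunit of complex I, had 159290, 152250 and 145941 normalized counts in controls and 136517, 60796 and 92672 in libraries labelled knockout, and its groups did not overlap. MT-CO1, the catalytic subunit of complex IV that holds the oxygen-binding centre, had 109010, 104659 and 99295 in controls and 96244, 47116 and 66638 in libraries labelled knockout, again without overlap. MT-CYB, the mitochondrial subunit of complex III, had 74269, 70572 and 67838 and then 74407, 32559.5 and 47514, so the library labelled knockout 1 stood above all controls while the other two were below them. The proton-channel subunit MT-ATP6 of complex V had 30632, 28411 and 27973 and then 29539.8, 12386 and 17820.1, with the library labelled knockout 1 inside the control range. In all, groups did not overlap for 7 of the 15 genes, all lower, where 18.2% of all genes were lower and 19.0% higher without overlap.

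**Figure D1:**
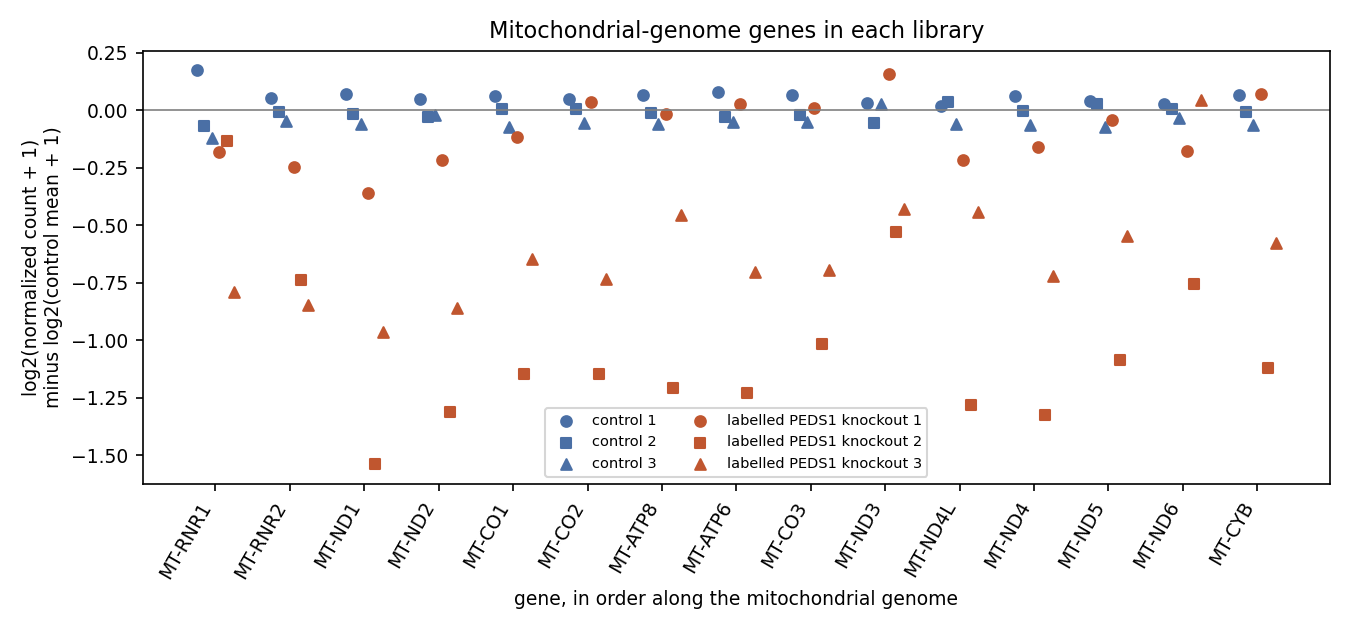
Level of each mitochondrial-genome gene in each library, as the log2 of normalized count + 1 minus the log2 of the control mean + 1 (vertical axis), in order along the genome (horizontal axis). Blue symbols are controls and red symbols libraries labelled PEDS1 knockout. The library labelled knockout 2 (red squares) is below all controls in 15 of 15 genes, and the library labelled knockout 1 (red circles) in 8 of 15.

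The libraries labelled knockout differed among themselves in how low this genome was. Relative to the control mean, the median over the 15 genes was -0.12 in the library labelled knockout 1, -1.14 in knockout 2 and -0.69 in knockout 3 on the log2 scale. All 15 genes were below every control in knockout 2, 14 in knockout 3 and 8 in knockout 1, where MT-ND3 and MT-CYB were above every control. In knockout 3 the exception was MT-ND6, with 516 normalized counts against 509.6, 501 and 488 in controls. Over all genes, 34.9% to 38.8% lay below every control in a library labelled knockout.

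Leaving out a library changed these calls. Without the library labelled knockout 1, 13 of the 15 were lower, against 6.03% of all genes called lower and 4.96% higher. Without the library labelled knockout 2, the lowest for the mRNAs, 2 were lower (MT-RNR2 and MT-ND1), MT-ND2 no longer passed (limma adjusted p = 0.0589), and the median log2 fold change of the 15 was -0.34. Without the library labelled knockout 3, 5 were lower (MT-RNR2, MT-ND1, MT-ND2, MT-ND4L and MT-ND6), against 11.1% of all genes lower and 10.4% higher. Without control 3, 1 passed (MT-RNR2), and without control 1 or control 2 none did, with 6 and 10 of the 15 at an unadjusted limma p under 0.05. The authors' deposited table gives adjusted p-values under the threshold for MT-RNR2 (0.000850, log2 fold change -0.59) and MT-ND4L (0.0271, log2 fold change -0.58), and calls 9.54% of all genes with an adjusted p lower. For MT-ND1 and MT-ND2 the authors' deposited table gives 0.0521 and 0.102.

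Within the mitochondrial mRNA pool, the mix of transcripts also differed between the groups. This pattern was chosen after the values were seen and is given as a description. MT-ND1 made up 5.84%, 5.73% and 5.79% of the 13 mRNAs' normalized counts in controls and 4.75%, 4.52% and 4.75% in libraries labelled knockout. Its share was 5.79% ± 0.05 (SD, n = 3) and 4.67% ± 0.13 (SD, n = 3), which is lower by far more than the spread within either group. This held in the library labelled knockout 1, where the pool as a whole was closest to control, and in the library labelled knockout 3.

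MT-ND2 held 5.29%, 5.24% and 5.46% in controls and 4.84%, 4.87% and 4.70% in libraries labelled knockout. MT-ND4, the largest share, held 24.0%, 24.0% and 23.9% and then 22.6%, 21.7% and 23.4%. Both shares were below every control in all libraries labelled knockout. MT-ND3, a small core subunit of complex I, held 2.17%, 2.13% and 2.34% in controls and 2.60%, 3.48% and 2.63% in libraries labelled knockout, and MT-CYB held 11.2%, 11.1% and 11.1% and then 12.3%, 11.6% and 12.0%. Their shares were above every control in all libraries labelled knockout. For the 8 other mRNAs the groups overlapped. With 3 libraries against 3, an exact permutation test cannot give a p below 0.1, and shares of 1 pool are not independent of each other.

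The ratio of MT-ND1 to MT-CYB does not depend on the library's scaling. It was 0.521, 0.515 and 0.521 in controls and 0.385, 0.389 and 0.396 in libraries labelled knockout 1, 2 and 3. The values within each group lay closer together than the gap between the groups, although MT-CYB itself ranged from 32559.5 to 74407 normalized counts among the libraries labelled knockout. The ratio of MT-ND2 to MT-CYB was 0.472, 0.471 and 0.492 and then 0.393, 0.419 and 0.392, also without overlap.

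**Figure D2:**
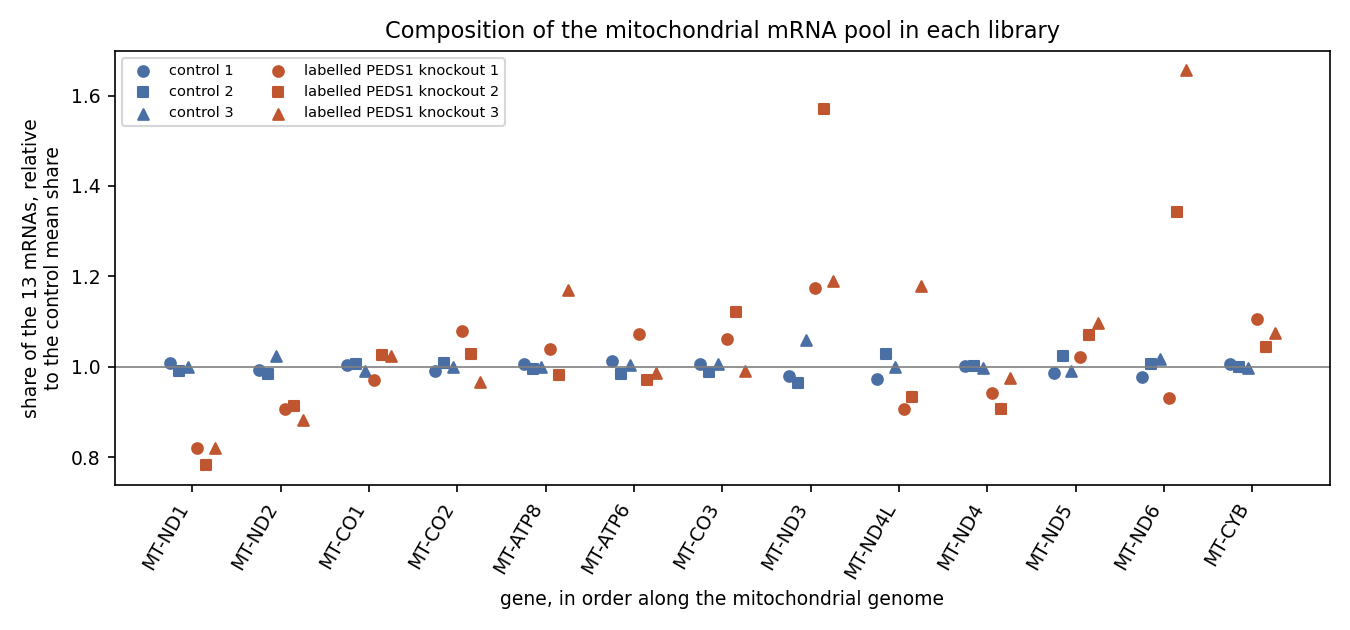
Share of each of the 13 mitochondrial mRNAs in their summed normalized counts, divided by the mean control share (vertical axis), in genome order (horizontal axis), for each library. The 3 libraries labelled PEDS1 knockout (red) lie below the controls (blue) for MT-ND1, MT-ND2 and MT-ND4 and above them for MT-ND3 and MT-CYB.

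The tRNAs that border MT-ND1 are not members but lie in the same precursor. MT-TL1, between MT-RNR2 and MT-ND1 (chrM:3230-3304), had 147, 167 and 156 normalized counts in controls and 111, 55.6 and 70.3 in libraries labelled knockout. It fell by 1.04 ± 0.22 (SE) on the log2 scale (limma adjusted p = 0.0140). MT-TI, between MT-ND1 and MT-ND2 (chrM:4263-4331), had 34.8, 31.0 and 42.6 and then 14.4, 4.64 and 14.7 normalized counts, where 1 read is worth 1.55 normalized counts in the library labelled knockout 2. It fell by 1.73 ± 0.39 (SE; limma adjusted p = 0.0187). MT-TT, next to MT-CYB, did not pass (log2 fold change -0.93 ± 0.34 SE, limma adjusted p = 0.0908). Mature tRNAs are short and carry no poly(A) tail, so these counts need not be mature tRNA.

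The rRNAs did not keep step with the mRNAs in every library. The log2 ratio of summed rRNA to summed mRNA counts was -1.74, -1.76 and -1.75 in controls and -1.92, -1.21 and -1.91 in libraries labelled knockout. The library labelled knockout 2, lowest for the mRNAs, was thus the one with most rRNA relative to mRNA, and the other two lay below the controls. MT-RNR1, the small rRNA, had 27752, 23464 and 22610.4 normalized counts in controls and 21673, 22413 and 14250.4 in libraries labelled knockout, a log2 difference of -0.36 that did not pass (limma adjusted p = 0.143) and was -0.15 without the library labelled knockout 3 (limma adjusted p = 0.195). Mitochondrial rRNAs are known to carry only short A tails, and the libraries were made from polyA RNA.

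Nuclear copies of mitochondrial genes are near-identical to them over long stretches, so their counts are uncertain. Some of the copies with the most reads were called lower as well. MTND2P28 (chr1:629640-630683), a copy of MT-ND2, had 1071, 1082 and 996 normalized counts in controls and 871, 366 and 617 in libraries labelled knockout (log2 fold change -0.85 ± 0.24 SE, limma adjusted p = 0.0431). MTND4P12 and MTCO1P12 were also called lower (limma adjusted p = 0.0470 and 0.0289), and MTATP6P1 was not (limma adjusted p = 0.117).

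Among nuclear subunits the middle of the distribution stayed near that of all genes. The median log2 fold change over the 78 was 0.05, with 50 above 0 and 28 below. The 3 called genes are all of complex I, where 35 members had a median of 0.02, and none of them passed without control 1 or without control 2, where limma gave 3 nuclear subunits at an unadjusted p under 0.05 in each case. NDUFS1 (chr2:206114817-206159603, minus strand) is the largest core subunit of complex I and holds iron-sulfur clusters that carry electrons from NADH. It had 4720.1, 4834 and 5307 normalized counts in controls and 6101, 6082 and 7581 in libraries labelled knockout. Every library labelled knockout exceeded every control and replicate 3 was the highest. It rose by 0.41 ± 0.10 (SE; limma adjusted p = 0.0227).

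NDUFA9 (chr12:4649095-4694317, plus strand), an accessory subunit at the junction of the membrane and matrix arms, had 931, 988 and 1035 normalized counts in controls and 1204, 1164 and 1446 in libraries labelled knockout, without overlap. It rose by 0.36 ± 0.10 (SE; limma adjusted p = 0.0345). NDUFA13 (chr19:19515736-19529054, plus strand), an accessory subunit also known as GRIM-19, had 504, 369 and 299 in controls and 201, 227 and 277 in libraries labelled knockout. The controls themselves ranged widely, and all the libraries labelled knockout lay below the lowest. It fell by 0.71 ± 0.18 (SE; limma adjusted p = 0.0316), but the call was also lost without the library labelled knockout 1 or 2 (limma adjusted p = 0.0753 and 0.0679) and after a GC correction described below. NDUFA9 and NDUFA13 each overlap 2 other annotated genes on the same strand, so some of their reads may belong to those.

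Further core subunits of complex I did not pass the threshold. NDUFV1, which binds NADH, had a log2 fold change of -0.22 ± 0.09 (limma adjusted p = 0.139; SE). NDUFS7 and NDUFS8, which carry the last iron-sulfur clusters, had -0.50 ± 0.20 and -0.34 ± 0.13 (SE; limma adjusted p = 0.121 and 0.107). Their levels in the controls alone spanned a wide range: NDUFS7 had 1159.6, 867 and 664 normalized counts in controls and 476, 708 and 699 in libraries labelled knockout. NDUFA7 had only 12.5 to 23.9 normalized counts and lies within a read-through gene on its strand, so its value is uncertain.

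None of the 4 complex II members passed in limma, edgeR or DESeq2, and 0 had an unadjusted limma p under 0.05. SDHA, the flavoprotein subunit that oxidizes succinate, had 525, 573 and 497 normalized counts in controls and 486, 499 and 500.2 in libraries labelled knockout (log2 fold change -0.10 ± 0.09 SE, limma adjusted p = 0.453). SDHC, a membrane anchor, had the highest value, 0.15 ± 0.09 (SE; limma adjusted p = 0.309). In both the groups overlapped. Complex II has no mitochondrial-genome subunit.

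None of the 9 complex III members passed in limma, edgeR or DESeq2, 1 had an unadjusted limma p under 0.05, and the median log2 fold change was 0.04. UQCRFS1, the Rieske iron-sulfur protein, had 2849.5, 2984 and 3174 normalized counts in controls and 3656, 3762 and 2942 in libraries labelled knockout, so replicates 1 and 2 of these stood above the controls and replicate 3 inside their range. Its log2 fold change was 0.19 ± 0.10 (SE; limma adjusted p = 0.202). UQCRHL had the lowest, -0.46 ± 0.21 (SE; limma adjusted p = 0.166), from 25.3 to 27.2 normalized counts in controls and 17.0 to 21.2 in libraries labelled knockout, and as a near copy of UQCRH its reads are uncertain. UQCRC1, UQCRC2 and UQCRB, which form and brace the core of the complex, had 0.13, 0.03 and 0.19, none past the threshold.

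None of the 13 complex IV members passed in limma, edgeR or DESeq2, with 1 at an unadjusted limma p under 0.05 and a median of 0.07. COX4I1, a regulatory subunit, had 9880.2, 9899 and 10263 normalized counts in controls and 10655, 11459 and 8843 in libraries labelled knockout (log2 fold change 0.04 ± 0.09 SE, limma adjusted p = 0.828). COX5A, an early-assembling subunit that binds next to it, had 4206, 4476 and 4589 and then 5394, 5462 and 3969 (0.15 ± 0.12 SE, limma adjusted p = 0.414). In COX5A and COX4I1 alike, replicates 1 and 2 of the libraries labelled knockout were above all controls and replicate 3 was below them. NDUFA4 is counted here because it is now placed in complex IV, and its isoform NDUFA4L2, a hypoxia-responsive gene, was the lowest at -0.36 ± 0.16 (SE; limma adjusted p = 0.149). The ratio of NDUFA4L2 to NDUFA4 was 0.0177, 0.0148 and 0.0133 in controls and 0.00939, 0.0121 and 0.0123 in libraries labelled knockout, without overlap. The GC content is 62.9% for NDUFA4L2 and 40.4% for NDUFA4, and the controls differed among themselves along GC content, as described below. After the GC correction given there, NDUFA4L2 had -0.06 (limma adjusted p = 0.794).

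None of the 17 complex V members passed in limma, edgeR or DESeq2, with 0 at an unadjusted limma p under 0.05 and a median of 0.08. ATP5F1B had 30343, 30816 and 32002 normalized counts in controls and 35374, 35672 and 28653 in libraries labelled knockout (log2 fold change 0.09 ± 0.09 SE, limma adjusted p = 0.514). ATP5F1A, the alpha subunit that alternates with it, had 25099, 26382 and 26379 and then 30063, 30898 and 24634 (0.13 ± 0.09 SE, limma adjusted p = 0.346). Both were above all controls in replicates 1 and 2 and below them in replicate 3. The highest fold change was that of ATP5F1E, the epsilon subunit of the central stalk, at 0.19 ± 0.09 (SE; limma adjusted p = 0.187), and the lowest that of ATP5F1D, the delta subunit of the same stalk, at -0.23 ± 0.21 (SE; limma adjusted p = 0.482).

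**Figure D3:**
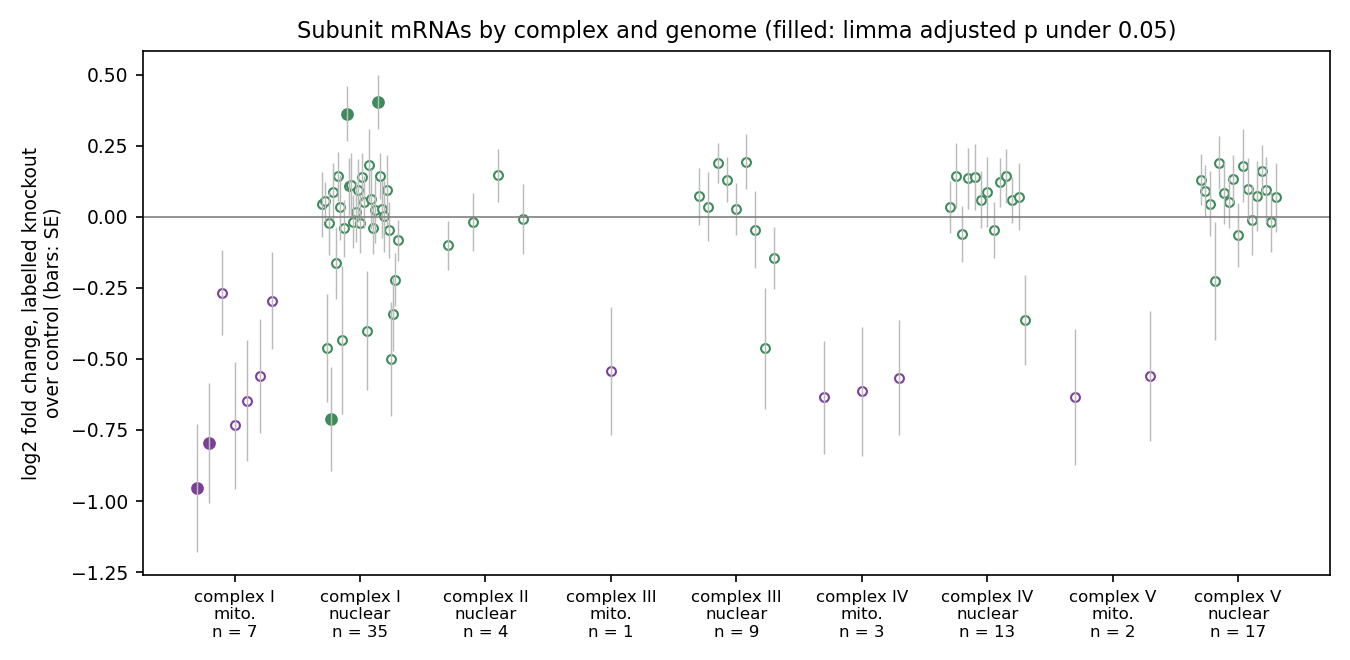
Log2 fold change of each subunit mRNA, libraries labelled PEDS1 knockout over control (vertical axis), with its standard error, by complex and genome (horizontal axis). Filled points passed the limma threshold: MT-ND1, MT-ND2, NDUFS1, NDUFA9 and NDUFA13. All 13 mitochondrial mRNAs lie below 0, while the nuclear subunits spread around it.

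The library labelled knockout 3 stood apart from the other two across the nuclear subunits. Of the 78, 58 were above every control in the library labelled knockout 1 and 62 in knockout 2, but 3 in knockout 3. Below every control were 14, 3 and 59. Over all genes, 36.7% to 37.6% lay above and 34.9% to 38.8% below. The median against the control mean was 0.15, 0.20 and -0.19 on the log2 scale in libraries labelled knockout 1, 2 and 3.

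The complexes can be read side by side. For complex V, 15 of 17 members were above every control in the library labelled knockout 1, 16 in knockout 2 and 0 in knockout 3, where 14 were below. For complex IV the counts were 10, 12 and 0 of 13 above, with 11 below in knockout 3. For complex I they were 24, 25 and 2 of 35 above, with 27 below in knockout 3. NDUFS1 and NDUFA9 were the complex I members above every control in knockout 3. For complex III they were 6, 7 and 1 of 9 above, with 5 below in knockout 3, and for complex II 3, 2 and 0 of 4, with 2 below.

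Without that library the nuclear subunits gave many more calls. Then 35 of the 78 were higher and 1 was lower, against 10.4% and 11.1% of all genes, and the median log2 fold change was 0.18. By complex the higher ones were 11 of 35 for complex I, 0 of 4 for complex II, 3 of 9 for complex III, 8 of 13 for complex IV and 13 of 17 for complex V. ATP5F1E had 0.30 (limma adjusted p = 0.0039), COX5A 0.30 (limma adjusted p = 0.0067) and UQCRFS1 0.31 (limma adjusted p = 0.0085). The library left out is the one whose PEDS1 level lay within the control range, and which of its other differences go with these values was not tested.

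Mitochondrial mRNA was low relative to nuclear subunit mRNA in each library labelled knockout. The summed normalized counts of the mitochondrial mRNAs were 2.44, 2.32 and 2.19 times those of the 78 nuclear subunits in controls 1, 2 and 3. The ratio was 1.97, 0.886 and 1.58 in libraries labelled knockout 1, 2 and 3. The groups did not overlap, and in replicate 2 the nuclear sum exceeded the mitochondrial one. As log2 ratios the means were 1.21 ± 0.08 (SD, n = 3) and 0.49 ± 0.59 (SD, n = 3), a difference of -0.72. The difference was -0.39 without the library labelled knockout 2, -0.97 without knockout 1 and -0.81 without knockout 3. Since both sums come from the same library, the ratio does not depend on the size factors.

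The sums behind the ratio moved differently by library. The mitochondrial mRNA sum was 662543, 633627 and 610666 normalized counts in controls and 603645, 279785 and 396492 in libraries labelled knockout. The nuclear sum was 271541, 273161 and 279414 and then 306779, 315756 and 251226. In the library labelled knockout 1 the mitochondrial sum was just under the lowest control and the nuclear sum above all controls. In knockout 2 both were far outside the control range in opposite directions, and in knockout 3 both were below it.

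By complex, the log2 ratio of mitochondrial to nuclear subunits showed a like order. For complex I it was 2.02, 1.98 and 1.92 in controls and 1.72, 0.57 and 1.37 in libraries labelled knockout, without overlap. For complex IV it was 2.11, 2.04 and 1.92 and then 1.82, 0.69 and 1.51, and for complex V -1.57, -1.70 and -1.77 and then -1.86, -3.13 and -2.21, both without overlap. For complex III, where MT-CYB is the single mitochondrial member, it was 1.39, 1.30 and 1.22 and then 1.23, -0.03 and 0.83, so the library labelled knockout 1 lay inside the control range.

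**Figure D4:**
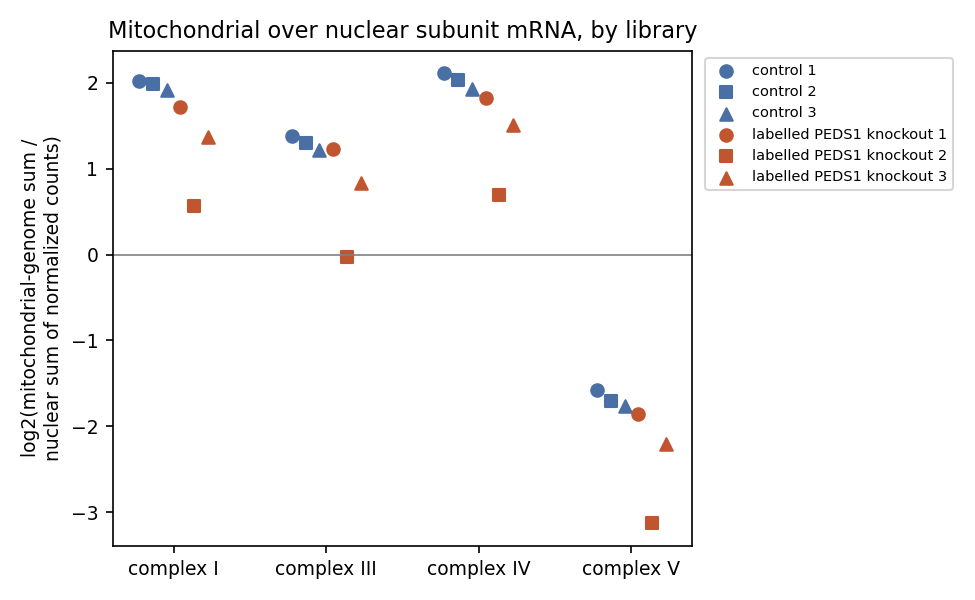
Log2 ratio of the summed normalized counts of mitochondrial-genome over nuclear subunit mRNAs (vertical axis) for complexes I, III, IV and V (horizontal axis), 1 point per library. Controls are blue and libraries labelled PEDS1 knockout red, and the red points are below the blue ones except the library labelled knockout 1 in complex III (1.23, against 1.22 to 1.39 in controls).

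The nuclear subunits' fold changes followed the GC content of their transcripts. Across the 78 genes, Pearson's r between the log2 fold change and GC content was -0.59 and Spearman's rho -0.50, where the points share the same 6 libraries, and over all genes with a GC value r was -0.34. The level of each library against the control mean followed GC too: r was 0.66, 0.11 and -0.69 in controls 1, 2 and 3 and -0.67, -0.47 and -0.35 in libraries labelled knockout. The controls thus differed among themselves along GC content, with control 1 and control 3 at opposite ends of their own mean.

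The 8 subunits with a GC content of 60% or more, a limit chosen after the values were seen, are NDUFB11, NDUFA13, NDUFA11, NDUFA4L2, NDUFS8, NDUFB7, NDUFS7 and ATP5F1D. All 8 had a fold change below 0, with a median of -0.38, and all 8 had their highest control value in control 1. In the 70 others the median was 0.06, with 50 above 0. After the trend of each library with GC content and length had been taken out, the median of the 8 was -0.03 and r over the 78 genes was 0.08. The trend was fitted over all genes with a GC value, these 78 among them, so the removal itself makes such values smaller. Whether GC content accounts for the lower values was not tested.

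With that trend removed, 12 nuclear subunits were higher and 0 lower, against 10.8% and 8.89% of all genes. NDUFA13 then had -0.43 (limma adjusted p = 0.0596), while NDUFS1 and NDUFA9 had 0.22 and 0.20 (limma adjusted p = 0.0072 and 0.0214). At an unadjusted limma p under 0.05 the corrected fit gave 22 higher and 2 lower. Without the removal, edgeR on recovered reads also called NDUFA13 lower (adjusted p = 0.0332). The mitochondrial-genome genes have a GC content of 39.6% to 47.7%, and 5 of them were lower after the removal, with a median log2 fold change of -0.56.

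**Figure D5:**
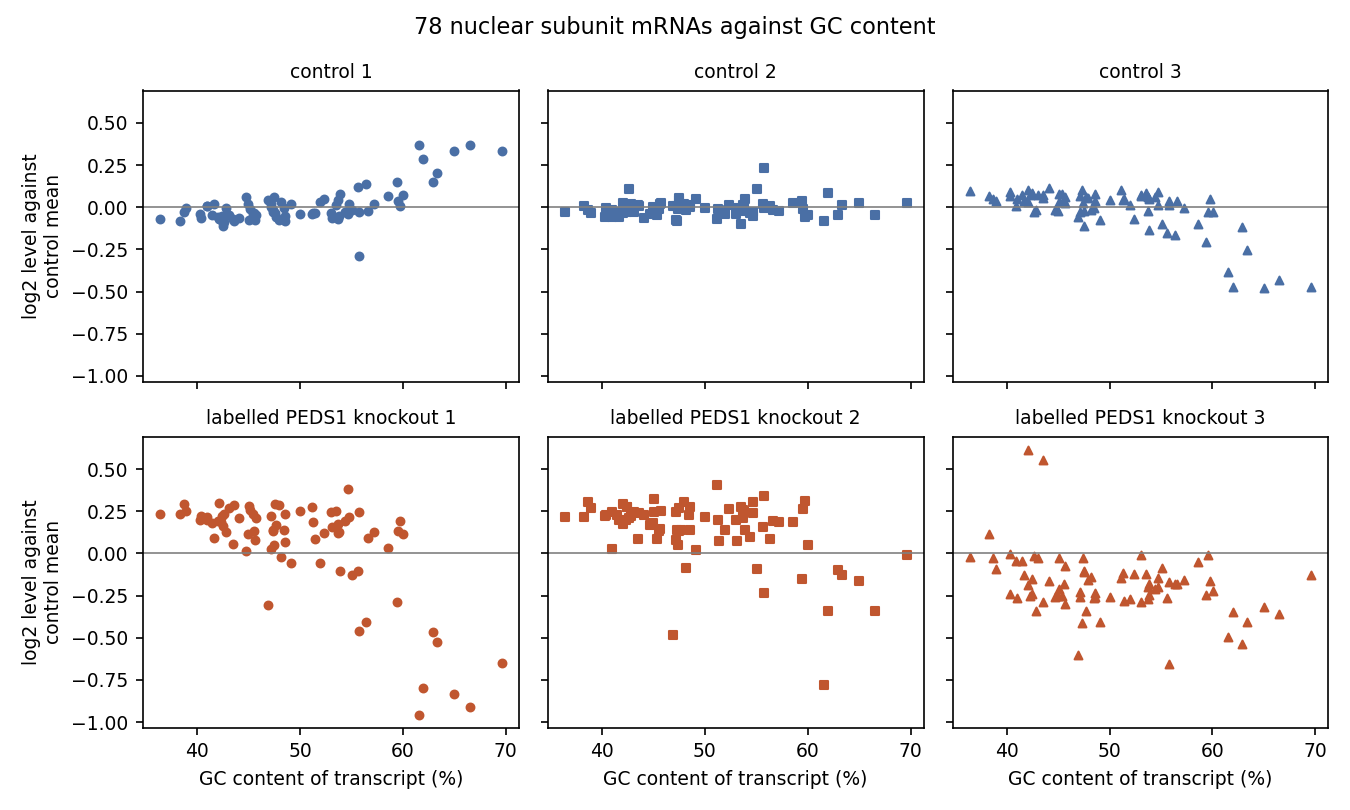
Log2 level of each of the 78 nuclear subunits against its control mean (vertical axes) by GC content of the transcript in percent (horizontal axes), 1 panel per library. For the 8 subunits of 60% GC or more the median is 0.31, -0.02 and -0.41 in controls 1, 2 and 3 and -0.72, -0.15 and -0.35 in libraries labelled PEDS1 knockout 1, 2 and 3.

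Upstream sequence of the nuclear subunits was searched for 3 motifs known from respiratory-chain promoters, those of NRF1, the ETS family (which includes NRF2) and YY1. RefSeq promoters (GRCh38.p14) matched 63 of the 78 genes, and the 250 bases before the start were read on both strands. None of the 3 motifs contains another. The NRF1 letters GCGCANGCG were found in 19 of 63 (30.2%), against 12.9% of the 11677 measured genes with a promoter and 7.02% of all 27305 promoters. The ETS letters CCGGAAG were found in 17 (27.0%), against 15.2% and 8.82%, and the YY1 letters AANATGGCG in 2 (3.17%), against 2.24% and 1.40%. Of the called nuclear subunits, NDUFA9 is among the 19 of 63 with the NRF1 letters. NDUFA13 and NDUFS1 are among the 17 of 63 with the ETS letters. Whether a match goes with a call was not tested. Short stretches are printed for NDUFA9 and NDUFA13, with the motif in capitals, and none for NDUFS1, which overlaps its neighbour EEF1B2.
NDUFA9: tcttggttagCGCTTGCGCagacaggcgag
NDUFA13: taagtcacttccgcccgggaCCGGAAGtgt
The NDUFA9 stretch (chr12:4649025-4649054, plus strand) holds the NRF1 letters on the opposite strand, 79 to 71 bases before the RefSeq start. That start, too, lies inside the gene as given by GENCODE. The NDUFA13 stretch (chr19:19516195-19516224, plus strand) holds the ETS letters 10 to 4 bases before the RefSeq start, which lies inside the gene as given by GENCODE. The genes with the ETS letters changed in opposite directions, NDUFA13 lower and NDUFS1 higher, and a letter match is not a binding site.

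Genes that build, feed and regulate the chain gave few calls, mostly of moderate size. Their counts stand against 5.95% of all genes called higher and 7.69% lower in the same comparison. Of 19 measured complex I assembly factors 0 were higher and 1 was lower: NDUFAF3 fell by 0.47 (limma adjusted p = 0.0343). Of 10 for complexes II and III, TTC19, known to help clear fragments of the Rieske protein from complex III, rose by 0.34 (limma adjusted p = 0.0230). Of 26 for complex IV, HIGD1A rose by 0.27 (limma adjusted p = 0.0398) and COX18, which inserts the MT-CO2 protein into the membrane, by 0.33 (limma adjusted p = 0.0424). For complex V 5 were measured and none passed.

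Of 19 electron carriers and enzymes of ubiquinone synthesis, GPD2, the glycerol-3-phosphate dehydrogenase that feeds electrons into ubiquinone, rose by 0.34 (limma adjusted p = 0.0183) and COQ4, needed to make ubiquinone, fell by 0.56 (limma adjusted p = 0.0080). COQ4 had 1311, 1381 and 1246 normalized counts in controls and 952, 765 and 971 in libraries labelled knockout, without overlap.

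Of 31 genes of mitochondrial transcription, RNA processing and stability, 3 were higher and 1 lower. FASTKD1, a mitochondrial RNA-binding protein known to limit MT-ND3 mRNA, had 1347, 1433 and 1464 normalized counts in controls and 1795, 1883 and 1759 in libraries labelled knockout, and rose by 0.36 (limma adjusted p = 0.0122). FASTKD2, which binds MT-RNR2 and MT-ND6 RNA, rose by 0.24 (limma adjusted p = 0.0403), and GRSF1, a protein of mitochondrial RNA granules, by 0.27 (limma adjusted p = 0.0327). FASTK, whose mitochondrial form is needed for MT-ND6 mRNA, fell by 0.42 (limma adjusted p = 0.0408). Of 16 genes of mitochondrial DNA replication and maintenance, RRM2B, a ribonucleotide reductase subunit that supplies nucleotides, rose by 0.33 (limma adjusted p = 0.0355), and POLG, the mitochondrial DNA polymerase, fell by 0.36 (limma adjusted p = 0.0219).

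Of 14 regulators of mitochondrial biogenesis 4 were higher and none lower, against 5.95% and 7.69% of all genes. PPARGC1A, the coactivator PGC-1alpha, had 767, 764 and 776 normalized counts in controls and 927, 938 and 1270.4 in libraries labelled knockout, and rose by 0.43 (limma adjusted p = 0.0390), or by 0.28 without the library labelled knockout 3 (limma adjusted p = 0.0149). The orphan nuclear receptors ESRRG and ESRRB rose by 0.63 and 0.35 (limma adjusted p = 0.0105 and 0.0315), and HIF1A, the hypoxia-inducible factor, by 0.25 (limma adjusted p = 0.0413). All 4 stood above every control in each library labelled knockout. Of 25 genes read as a measure of mitochondrial mass, the outer membrane receptor TOMM20 rose by 0.23 and the citrate cycle enzyme OGDH by 0.29, and the cristae protein CHCHD6 fell by 0.42 (limma adjusted p = 0.0354, 0.0321 and 0.0376). The median log2 fold change of these lists ran from -0.04 for electron carriers to 0.16 for regulators of biogenesis. Of the 19 calls in these lists 13 remained after the GC correction, which ended those of NDUFAF3, COX18, COQ4, GRSF1, FASTK and CHCHD6. With scaling to total nuclear reads 13 remained, 8 of the 14 higher ones among them, and TOMM20, GRSF1, HIGD1A, FASTKD2, COX18 and HIF1A no longer passed. All 19 remained without the library labelled knockout 3. Without control 3, 11 remained, without control 1, 1, without control 2 none, and without the library labelled knockout 1 or 2, 8 and 7.

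The remaining members are transcripts that make no subunit. The pseudogenes ATP5F1AP3, COX5BP6, COX6A1P2, NDUFA4P1 and NDUFV2P1 had control means of 13.5 to 50.6 normalized counts, share sequence with their parent genes and did not pass the threshold. The antisense or divergent transcripts NDUFA6-DT, NDUFB2-AS1 and NDUFV2-AS1 had control means of 123, 32.4 and 77.1, and none passed. NDUFV2-AS1 was the lowest of these, with 87.1, 69.0 and 75.3 normalized counts in controls and 55.8, 61.8 and 59.0 in libraries labelled knockout (log2 fold change -0.38 ± 0.15 SE, limma adjusted p = 0.114), its groups not overlapping. Of the 78 protein-coding nuclear members, 28 overlap another gene on the same strand and 40 one on the opposite strand.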

How the data were processed

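PolyA RNA of 3 control and 3 PEDS1 knockout libraries of iPSC-derived neurons was sequenced, and the sample labels give the groups and replicate numbers. Per the labels' protocols, libraries were stranded and prepared from 500 ng of RNA, reads were single-end and 100 bp long, and 1 batch is named for all. Per the submitters' processing notes, STAR 2.7.10b and DESeq2 were used with the build GRCh38. The tool and annotation used for counting reads are not named there. The values deposited by the authors are a signal, read counts that they divided by a library's size factor. All deposited values (100%) were whole multiples of their library's step (tolerance 1e-06), which gave back whole reads, and each gene reached 10 reads in 3 or more libraries. The authors' deposited table also gives a log2 fold change and an adjusted p-value per gene, empty for 1612 genes. The second deposited sheet was not used.

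From these, limma 3.58.1 (R 4.3.3) modelled log2(normalized count + 1) by genotype, using empirical Bayes moderation with a mean-variance trend, and p-values were adjusted over 16625 genes by Benjamini-Hochberg. This scale understates the change of low genes. Ratios and shares were computed from normalized counts. GC content, lengths and positions came from GENCODE 29 principal transcripts (GRCh38; 96.5% of genes, all 101 members). Members and lists were chosen with earlier results of these data known. Named genes were the mitochondrial-genome members, called nuclear members, the highest and lowest of each complex, core subunits and isoform pairs, up to 4 called genes per list and PEDS1. Not every gene that this rule selects is reported here.

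Alternatives were TMM scaling, scaling to total nuclear reads, a filter at a mean normalized count of 10 or 100, a pseudocount of 0.5 or 5, a replicate block, leaving out each library, the authors' adjusted p-values, edgeR 4.0.16 and DESeq2 1.42.0 on recovered reads, and removing the trend of each library with GC content and length (natural splines, 4 degrees of freedom). On recovered reads, edgeR called 2248 genes and DESeq2 2706. The limma script was tested on simulated data. No 2 replicates were as close as sampling noise allows (mean chi-square per gene 2.65 to 11.7 for control pairs and 10.5 to 31.5 for knockout-labelled pairs), and none was treated as a duplicate.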

Additional observations from a re-analysis of the deposited data

How the results depend on the processing

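The lower balance of mitochondrial to nuclear mRNA (log2 difference -0.72) ran from -0.97 to -0.39 when 1 library was left out, the smallest when the library labelled knockout 2 was omitted, and was -0.74 after GC and length trends were removed. Scaling a whole library cannot change this ratio, and the other alternatives were not run for it. The number of mitochondrial-genome genes called, 3, was 6 when libraries were scaled to total nuclear reads and 5 after GC and length trends were removed, all lower, and 0 to 13 when 1 library was left out. Nuclear subunits called, 3, were 12 after the GC and length removal and 0 to 36 when 1 library was left out. The 0 came without control 1 or control 2, where limma gave 3 nuclear subunits at an unadjusted p under 0.05 in each case, and the 36 without the library labelled PEDS1 knockout replicate 3. Over all genes 2269 were called, with a range of 582 to 3577 when 1 library was left out. The split of higher and lower calls, 990 and 1279, was 1726 and 1427 after the GC and length removal, 744 and 1727 with scaling to total nuclear reads, and 905 and 1339 with TMM. Replicate numbers did not pair the libraries (correlations of deviations -0.300, 0.097 and -0.049), and a fit with the replicate block called 1560 genes, 5 mitochondrial-genome genes and 2 nuclear subunits, and kept 8 of the 19 calls in the lists of other mitochondrial genes. Of 1222 values of the 72 named genes under other settings, 1057 kept their side of the threshold, 116 lost and 49 gained a call and 0 calls reversed. Fold changes that did not pass could still change sign. After GC and length trends were removed, ATP5F1D went from -0.23 to 0.25 and SDHC from 0.15 to -0.05. Members under about 30 normalized counts, such as NDUFA7 and UQCRHL, are limited by depth. The cause of these shifts was not tested.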
